A study of Mus musculus with 8 samples.

Results

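Binding sites of Foxa2 and Hdac3 were compared in the liver of young mice. Chromatin immunoprecipitation with sequencing (ChIP-seq), which recovers the DNA bound by a protein with an antibody against it, had been applied to snap-frozen liver of wild-type C57BL/6 mice at 3 months (young) and at 21 months (old). Each protein and age had 2 libraries behind a single list of sites. The antibodies against both proteins were raised in rabbit, the sex of the mice was not given, and nothing says that the libraries came from separate animals. The comparison took all sites of the young Foxa2 list (6604) and of the young Hdac3 list (5828), 12432 of the 28196 sites in the 4 lists of the study, and the old lists served only to ask which young sites were listed again. A Foxa2 site and an Hdac3 site were called overlapping when they had at least 1 bp in common, and otherwise the distance was taken from the edge of one to the nearest edge of the other. Positions are those of the mm9 build as listed, and whether they count from 0 or 1 is not stated. No gene annotation or sequence of that build was used here, so sites are named by position, and the labelled tissue was not checked against marker genes.

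Foxa2 is a forkhead transcription factor that recognises DNA directly, can engage nucleosome-covered DNA and helps to set up and maintain liver enhancers. Hdac3 is a histone deacetylase, an enzyme that removes acetyl groups from histone tails. It does not recognise DNA by itself and is brought to chromatin by corepressor complexes, in liver among others those held by nuclear receptors of the clock and of lipid metabolism. An Hdac3 site in ChIP-seq is therefore read as a place where the enzyme was crosslinked to DNA through other proteins. Whether each listed site is such a place was not tested.

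In the full young lists Foxa2 and Hdac3 were mostly at different places, whereas the few Hdac3 sites with the best q-values mostly lay on Foxa2. Sites were short in both lists, with a median width of 40 bp for Foxa2 and 26 bp for Hdac3. The q-value, the authors' false discovery estimate for each site, was at most 0.05 in 5685 Foxa2 sites but in only 105 Hdac3 sites. Of the 6604 Foxa2 sites, 213 overlapped an Hdac3 site, which is 3.23% of the list (exact 95% binomial interval 2.81 to 3.68). Of the 5828 Hdac3 sites, 237 overlapped a Foxa2 site, 4.07% (3.57 to 4.61). With both lists limited to a q of at most 0.05, 93 of the 105 Hdac3 sites did, 88.6% (80.9 to 94.0), and 1.48% of the Foxa2 sites overlapped Hdac3. Most overlaps of the best Hdac3 sites lay in regions that all 4 lists of the study held, described below. Of the best 100 Hdac3 sites 91 overlapped Foxa2, 78 of them in such regions. Whether the sites in such regions depend on the antibody was not tested, and the control behind the lists is not given. By length the common part was larger: the 61.3 kb that both lists covered were 13.4% of the 458 kb under Foxa2 sites and 26.2% of the 234 kb under Hdac3 sites. All intervals here cover counting error only. With 1 list per protein no value has a replicate error, no difference was tested, and read depth per library was unknown.

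The overlapping sites formed 212 places, each a set of Foxa2 and Hdac3 sites joined by overlap. At 199 of them 1 Foxa2 site met 1 Hdac3 site, and at the other 13 several sites of a list met a site of the other list, up to 5 Hdac3 sites on 1 Foxa2 site. The places fell into 3 kinds. At 102 places, sites of both old lists belonged to the same merged region, so that the place was held by all 4 lists of the study. Another 26 lay in crowded windows, defined as windows of 100 kb with 6 or more young Hdac3 sites. The remaining 84 places lay outside both, with 84 Foxa2 sites (1.32% of the 6384 Foxa2 sites outside both) and 84 Hdac3 sites (1.50% of 5592), spread over 19 chromosomes. Regions held by all 4 lists and crowded windows are together called special regions here. The first kind holds old sites by definition, so leaving it out removes overlapping sites in advance.

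Over all regions the overlap was concentrated at the top of both lists. When sites were ordered by q-value (ties in order of enrichment), all of the best 50 Hdac3 sites overlapped a Foxa2 site, 48 of them in regions held by all 4 lists and 2 in crowded windows. Among the best 100 Hdac3 sites 91 did (interval 83.6 to 95.8%), and among the other 5728 only 146 did, 2.55% (2.16 to 2.99). For Foxa2 the same numbers were 45 of the best 50, 65 of the best 100 and 148 of the other 6504, 2.28% (1.93 to 2.67). The tops of the lists were also the same places: 37 of the best 50 Foxa2 sites overlapped 1 of the best 50 Hdac3 sites, and 58 of the best 100 overlapped 1 of the best 100. From there the gain was slow, with 82 at 500 sites per list and 111 at 2000.

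Below the top the shares followed different courses. The overlapping share of Foxa2 sites was 20% in the first 500 ranks, 6.20% in the next 500 and lowest in ranks 4501 to 5000, where 1 of 500 overlapped, and it was 4.81% among the last 104 sites (interval 1.58 to 10.9). The share of Hdac3 sites was 21.6% in the first 500 ranks, 1.60% in the next 500, and between 1% and 4.57% in every later bin. The highest of these later values, 4.57% (2.58 to 7.43), belonged to the last 328 sites, which had the weakest q-values of the Hdac3 list. By bins of 500 ranks this concentration was much weaker outside the special regions, and the last bins were as high as the first. There 2.70% of the Foxa2 sites of the first 500 ranks overlapped and 4.16% of the next 500. From rank 1001 to 6500 the bins had between 0.201% and 1.66%, and the last bin, with 99 sites there, had 4.04%. For Hdac3 the first bin had 2.97%, the last 3.22% and those between 0.609% to 1.87%. Only 14 of the best 100 Hdac3 sites lay outside these regions, and 5 of them overlapped Foxa2. The plot of overlap by q rank shows both lists.

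**Figure D1:**
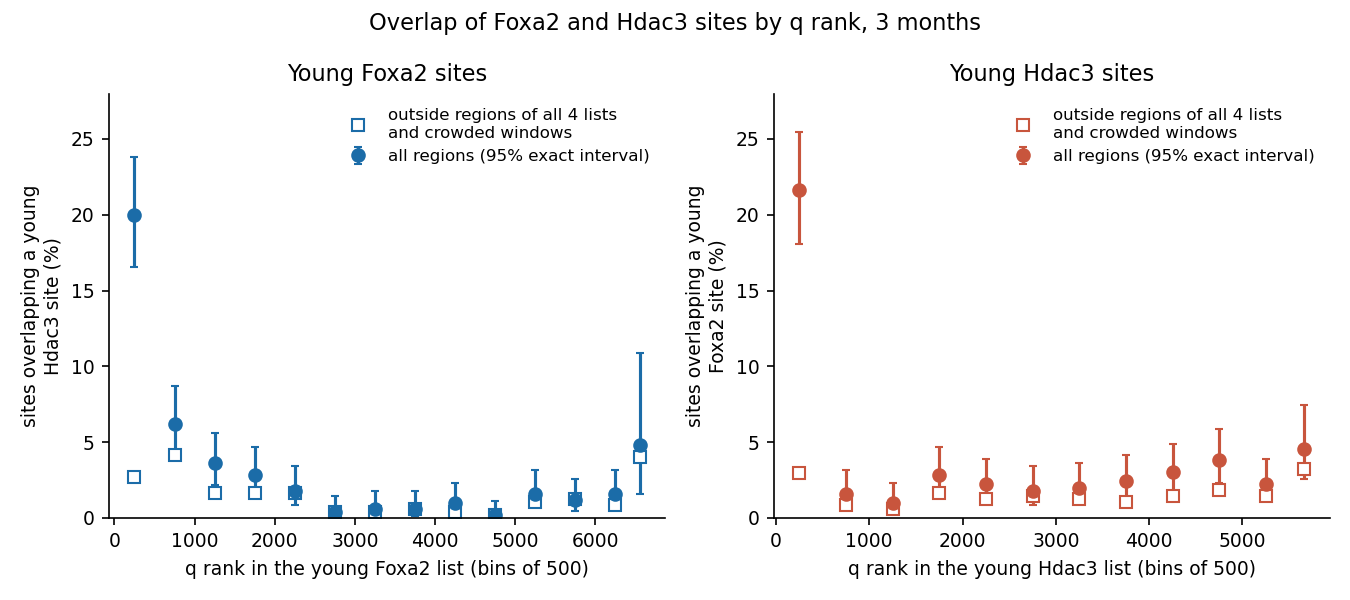
Share of young Foxa2 sites overlapping a young Hdac3 site (left) and of young Hdac3 sites overlapping a young Foxa2 site (right), in bins of 500 sites by q rank. Filled points are all regions with exact 95% intervals, and open squares leave out regions held by all 4 lists and crowded windows. The first bin reaches 20% and 21.6% over all regions, against 2.70% and 2.97% in the open squares.

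Overlapping sites were wider than the others and had lower enrichment. The middle 50% of the Foxa2 sites on Hdac3 were 100 to 470 bp wide with a median of 168 bp, and those without Hdac3 13 to 77 bp with a median of 38 bp. The middle 50% of the Hdac3 sites on Foxa2 were 60 to 276 bp wide, and those without Foxa2 11 to 44 bp. Outside the special regions the medians of the overlapping sites were 100 bp for Foxa2 and 60 bp for Hdac3. The enrichment, a fold value per site made by the authors, went the other way. Its median was 4.64 in Foxa2 sites with Hdac3 and 12 in those without, and 5.69 in Hdac3 sites with Foxa2 and 18.5 in those without. Enrichments above 100 were found in 4 of the 213 overlapping Foxa2 sites (1.88%) and in 885 of the 6391 others (13.8%), and in 11 of the 237 overlapping Hdac3 sites (4.64%) and 1396 of the 5591 others (25%).

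The overlapping share rose with each step in width in both lists. Of the 2772 Foxa2 sites under 30 bp, 5 met an Hdac3 site, 0.180% (0.0586 to 0.420). With lower class limits of 30, 60 and 120 bp the shares were 0.771%, 3.08% and 12.7%, and of the 127 Foxa2 sites of 300 bp or more 57.5% (48.4 to 66.2) met one. For Hdac3 the shares over the same classes were 1.07%, 1.40%, 8.78%, 67.4% and 93.3%, the last with 56 of 60 sites (83.8 to 98.2). The order held outside the special regions too, at lower levels: 0.181% to 15% for Foxa2 and 0.773% to 42.9% for Hdac3, where the widest class had 40 and 7 sites. A wider site has more bases that can be met. Width and rank went together at the top, where the best 50 sites had a median width of 644 bp for Foxa2 and 451.5 bp for Hdac3. Farther down they came apart: the last 328 Hdac3 sites had a median width of 37 bp and a share of 4.57%, and those of ranks 1001 to 1500 had 21 bp and 1%.

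**Figure D2:**
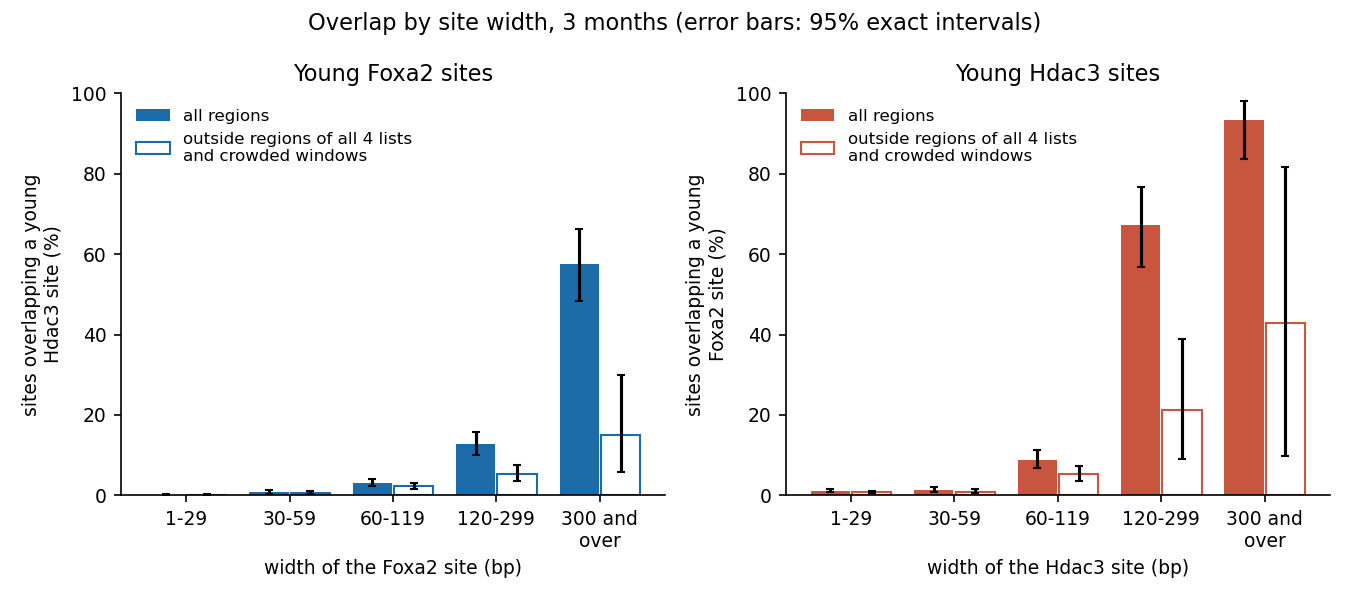
Share of young Foxa2 sites (left) and young Hdac3 sites (right) that overlap the other protein, by width of the site in bp. Filled bars are all regions, open bars leave out regions held by all 4 lists and crowded windows, and error bars are exact 95% intervals. Over all regions the widest class reaches 57.5% for Foxa2 and 93.3% for Hdac3.

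Where sites overlapped, Hdac3 mostly lay inside Foxa2. In 141 of the 238 overlapping pairs of sites (59.2%) the Hdac3 site was contained in the Foxa2 site, in 18 the Foxa2 site was contained in the Hdac3 site, in 1 pair both had the same ends, and 78 pairs overlapped in part. The median overlap was 103 bp (quartiles 42 and 274), and the centres of the paired sites were a median of 21.8 bp apart. Within 50 bp lay 161 pairs of centres (67.6%). Outside the special regions the Hdac3 site was contained in 37 of 84 pairs (44.0%). The paired sites there were smaller, with a median overlap of 41.5 bp, and their centres were a median of 26.0 bp apart, with 81.0% within 50 bp. Centres of overlapping sites cannot lie farther apart than the widths allow, so this closeness is partly set by the overlap rule. The Foxa2 sites covered more bases than the Hdac3 sites at 166 of the 212 places and fewer at 40. At the edge of the overlap rule, 21 pairs had 1 to 10 bp in common, with median widths of 111 bp for Foxa2 and 9 bp for Hdac3, and 5 Foxa2 sites missed an Hdac3 site by 1 to 10 bp.

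Across the shared places the enrichments of the 2 proteins were high and low together. The values of the best site of each protein had a Spearman rank correlation of 0.86 over the 212 places, 0.89 over the 102 places held by all 4 lists and 0.84 over the 84 outside the special regions. The q ranks of the 2 proteins were less alike outside those regions, with 0.28 over the 84 places, than over all places, with 0.76. These correlations are across places of the genome, which share libraries and local sequence, and have no p-value. They were not computed within chromosomes, and whether both lists were measured against the same reference is not known. Enrichment ran from 1.07 to 258 for Foxa2 and from 1.14 to 316 for Hdac3. It was under 10 in both at 137 places (64.6%), and the Hdac3 value was the higher one at 156. The sources do not say what the enrichment is measured against, so the values of the lists are not on a known common scale.

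**Figure D3:**
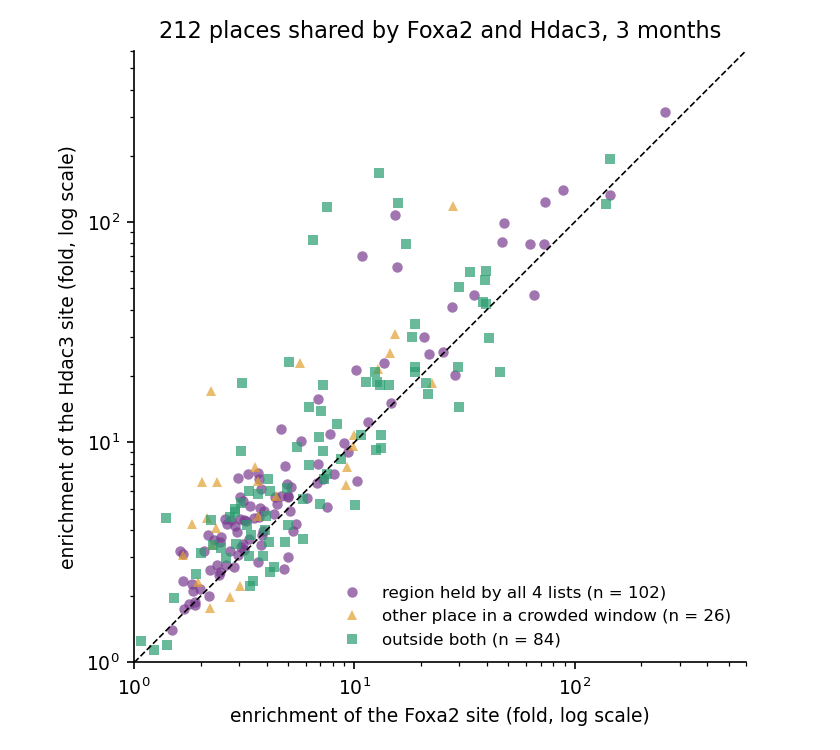
Enrichment of the best-ranked Foxa2 site (horizontal) against that of the best-ranked Hdac3 site (vertical) at the 212 shared places, both on log scales. Colours and shapes give the 3 kinds of place, and the dashed line marks equal values. The kinds lie along the same band, and 156 points are above the line.

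The best-ranked shared places were broad, had low enrichment, and were in all 4 lists. The first was chr17:39979918-39985792, where the Foxa2 site of 5875 bp and the Hdac3 site of 5857 bp were rank 1 in their lists, with enrichments of 3.86 and 3.96. At chr9:3000000-3001509 both sites had the same width of 1510 bp, and the enrichments were 4.64 for Foxa2 and 5.69 for Hdac3. At chr15:74915910-74917507 they were 3.11 and 3.46. The neighbours chr2:98502351-98503176 and chr2:98506357-98507531 had Foxa2 enrichments of 2.46 and 2.07 and Hdac3 enrichments of 3.53 and 3.21. All 5 values for each protein were below the medians of the whole lists, 11.9 for Foxa2 and 18.2 for Hdac3.

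A few windows held many of the shared places. Of the 212 places, 65 (30.7%) lay in 12 crowded windows, and 5 of these windows held at least 1. On chromosome 9 the young sites between 3000000 and 3038289 numbered 30 for Foxa2 and 27 for Hdac3, and they formed 26 shared places, 23 of them in all 4 lists. On chromosome X between 166407896 and 166446856 there were 23 Foxa2 and 32 Hdac3 sites and 14 shared places, and all 32 Hdac3 sites lay on Foxa2. On chromosome 1 between 90109721 and 90198958 there were 65 Foxa2 and 36 Hdac3 sites, but only 13 shared places. The 7 windows without a shared place held few Foxa2 sites or none, for example 4 Foxa2 beside 12 Hdac3 sites on chromosome 4 between 42903658 and 42995757, and 3 of them had no Foxa2 site.

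The shares also differed between chromosomes. Chromosome 9 had 35 of its 352 Foxa2 sites on Hdac3 (9.94%, interval 7.02 to 13.6), chromosome X 21 of 224 (9.38%, 5.90 to 14.0) and chromosome 8 24 of 435 (5.52%, 3.57 to 8.10), whereas chromosome 7 had 3 of 365 (0.822%) and chromosome 14 had 2 of 267 (0.749%). Chromosomes 9, X and 8 hold 3 of the 4 windows with most shared places. On these chromosomes 4 of 317, 4 of 199 and 11 of 408 Foxa2 sites outside the special regions overlapped Hdac3. The X chromosome carried 38 of the 237 Hdac3 sites on Foxa2, 16.0% (11.6 to 21.3), and 4.78% of those without Foxa2 (4.23 to 5.37). Of these 38 sites, 32 lay in the run between 166407896 and 166446856. The interval counts such neighbours as separate sites, so it does not describe the chromosome outside that run.

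Outside regions held by all 4 lists, 5 of the 12 best shared places by the worse of both ranks belonged to the run on chromosome X. At chrX:166420552-166423261 and chrX:166410779-166414433, 1 Foxa2 site met 3 and 5 Hdac3 sites. The Foxa2 enrichments were 3.53 and 3.65, and both places were in the old Hdac3 list, as was chrX:166414769-166415548. At chrX:166442245-166443795 the enrichments were 9.83 for Foxa2 and 9.64 for Hdac3, and the old Foxa2 list held the place. The last of these, chrX:166445435-166446856, was in no old list.

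Among the other 7 the best was chr1:74061213-74061426, with a Foxa2 site of 201 bp at rank 45 (enrichment 41.0) and an Hdac3 site of 190 bp at rank 58 (29.8). At chr8:20020379-20020469 the sites were 91 and 76 bp wide, with enrichments of 38.4 for Foxa2 and 43.2 for Hdac3. At chr10:128035682-128035880 they were 199 and 118 bp wide, with enrichments of 18.9 and 20.9. These 3 places were in the old Foxa2 list but not in the old Hdac3 list. Elsewhere the Hdac3 site was much shorter. At chr8:41744610-41744828 a Foxa2 site of 219 bp held an Hdac3 site of 18 bp with an enrichment of 122, and at chr7:148662447-148662556 a Foxa2 site of 110 bp held an Hdac3 site of 20 bp with an enrichment of 118. At chr8:19784620-19784803 the widths were 183 and 59 bp and the enrichments 21.2 and 18.5. At chr8:56206793-56206903 the widths were 111 and 7 bp and the enrichments 12.6 and 9.26.

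Hdac3 sites also lay near Foxa2 sites that they did not touch. Of the Foxa2 sites, 130 had their nearest Hdac3 site 1 to 500 bp away, 172 beyond that up to 2000 bp and 389 farther up to 10000 bp, so that 691 (10.5%, interval 9.74 to 11.2) had one within 10000 bp without overlap. This share was 3.17% with both lists at a q of at most 0.1 and 6.75% in the best 50% of both lists. In the full lists another 1799 had it within 100000 bp and 3901 (59.1%) farther away, and the median distance was 156 kb (quartiles 35.1 and 461). From the side of Hdac3, 562 sites (9.64%, 8.90 to 10.4) had a Foxa2 site within 10000 bp without overlap, 3304 (56.7%) had none within 100000 bp, and the median distance was 136 kb.

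The number of Hdac3 sites per Mb fell steadily with distance from a Foxa2 centre. It was 96.2 per Mb within 200 bp, 24.2 from 200 to 500 bp, 16.1 from 2 to 5 kb, 7.34 from 20 to 50 kb and 2.57 from 200 to 500 kb, against a mean of 2.28 per Mb over the same chromosomes. Outside the special regions the densities were lower at short range and fell to the same level: 50.1 per Mb within 200 bp, 22.9 times the mean there, then 3.80 times the mean from 1 to 2 kb, 1.52 times from 20 to 50 kb and 1.13 times from 200 to 500 kb. Also outside the special regions, around the Foxa2 sites of ranks up to 1500 the Hdac3 density was 40.8 times the mean within 200 bp and 3.43 times at 5 to 10 kb, and around the later ranks it was 18.0 and 1.94 times. There the density of Hdac3 sites around other Hdac3 sites was higher at long range, with 2.03 times the mean from 100 to 200 kb against 1.21 times around Foxa2. From 200 bp to 10 kb neither was higher throughout. Around Hdac3 it was 5.61 times the mean from 200 to 500 bp, against 6.21 around Foxa2. From 5 to 10 kb it was 2.58 against 2.26 times.

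**Figure D4:**
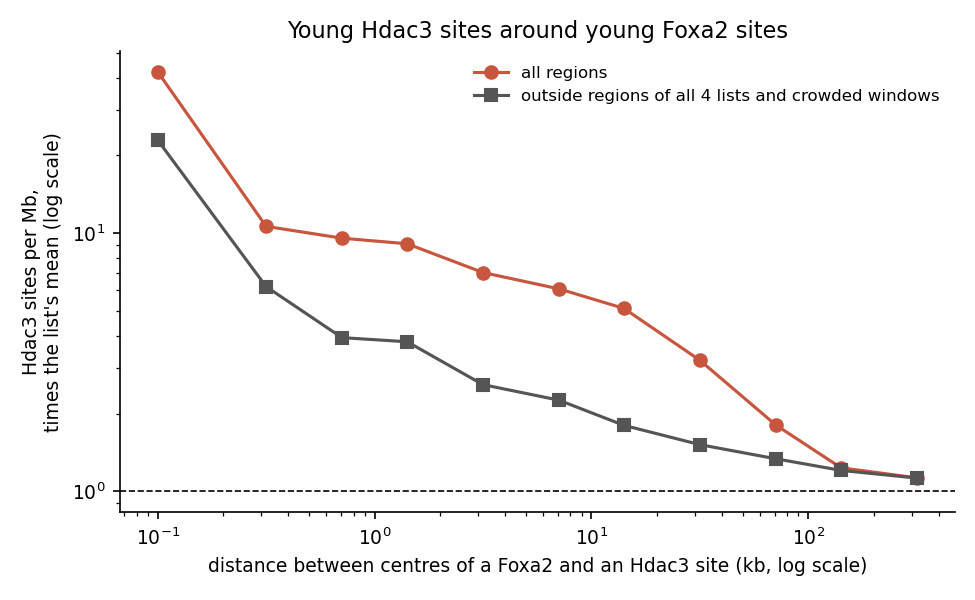
Density of young Hdac3 sites around young Foxa2 sites, as a multiple of the mean density of the Hdac3 list (dashed line), by distance between centres in kb, both axes on log scales. The first point of each line stands for 0 to 0.2 kb. Both lines fall from 42.2 and 22.9 times the mean to 1.13 times at 200 to 500 kb.

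Young Hdac3 sites that were listed again at 21 months were mostly those on Foxa2. Of all young Hdac3 sites 158 (2.71%) overlapped an old Hdac3 site, and 140 of these 158 lay on a young Foxa2 site, 88.6% (interval 82.6 to 93.1). Of the 5670 young Hdac3 sites not listed again, 97 did, 1.71% (1.39 to 2.08). Seen from the other side, 140 of the 237 Hdac3 sites on Foxa2 were listed again (59.1%), against 18 of the 5591 without Foxa2 (0.322%). Regions held by all 4 lists hold such sites by definition. Outside them 30 of 46 recurring Hdac3 sites lay on young Foxa2 (65.2%, 49.8 to 78.6), and outside crowded windows as well 18 of 29 did (62.1%, 42.3 to 79.3). By rank, 86 of 108 Hdac3 sites with Foxa2 recurred in the first 500, 4 of 13 in the next 1000 and 50 of 116 beyond, against 0.510%, 0.405% and 0.285% of those without. Outside the special regions the 18 recurring sites with Foxa2 all lay beyond rank 1500, among 65, and 0 of 12 and 0 of 7 recurred in the better ranks, with exact upper limits of 26.5% and 41.0%.

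For Foxa2 the relation to recurrence differed between ranks. Of all young Foxa2 sites 40.7% were also in the old Foxa2 list, 148 of the 213 with Hdac3 (69.5%, interval 62.8 to 75.6) and 2542 of the 6391 without (39.8%, 38.6 to 41.0). In the first 500 ranks the sites with Hdac3 recurred at 93% (86.1 to 97.1) and those without at 97.5% (95.5 to 98.8). In the next 1000 ranks the shares were 28 of 49 (57.1%, 42.2 to 71.2) against 814 of 951 (85.6%, 83.2 to 87.8), and beyond rank 1500 they were 27 of 64 (42.2%, 29.9 to 55.2) against 1338 of 5040 (26.5%, 25.3 to 27.8). The sites with Hdac3 had a median rank of 607 and those without of 3373. Outside regions held by all 4 lists, which hold old Foxa2 sites by definition, 45 of 110 Foxa2 sites with Hdac3 recurred (40.9%, 31.6 to 50.7), and 39.8% of those without. Beyond rank 1500 the shares there were 17 of 54 (31.5%, 19.5 to 45.6) against 26.5%. Without crowded windows as well they were 16 of 45 (35.6%, 21.9 to 51.2) against 26.7%. Both intervals include the share of sites without Hdac3. In the 1000 ranks before, they were 16 of 37 (43.2%, 27.1 to 60.5) and 16 of 28 (57.1%, 37.2 to 75.5), against 85.6% and 86.8%. Leaving out regions held by all 4 lists took away 103 of the 213 sites with Hdac3, all of them recurring. It left 6387 of the 6391 sites without Hdac3. The choice of regions thus lowers the share with Hdac3 in advance, and these values cannot show whether the groups differ in recurrence. The lists were made separately for each age, and the part of their limits in these shares was not tested.

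**Figure D5:**
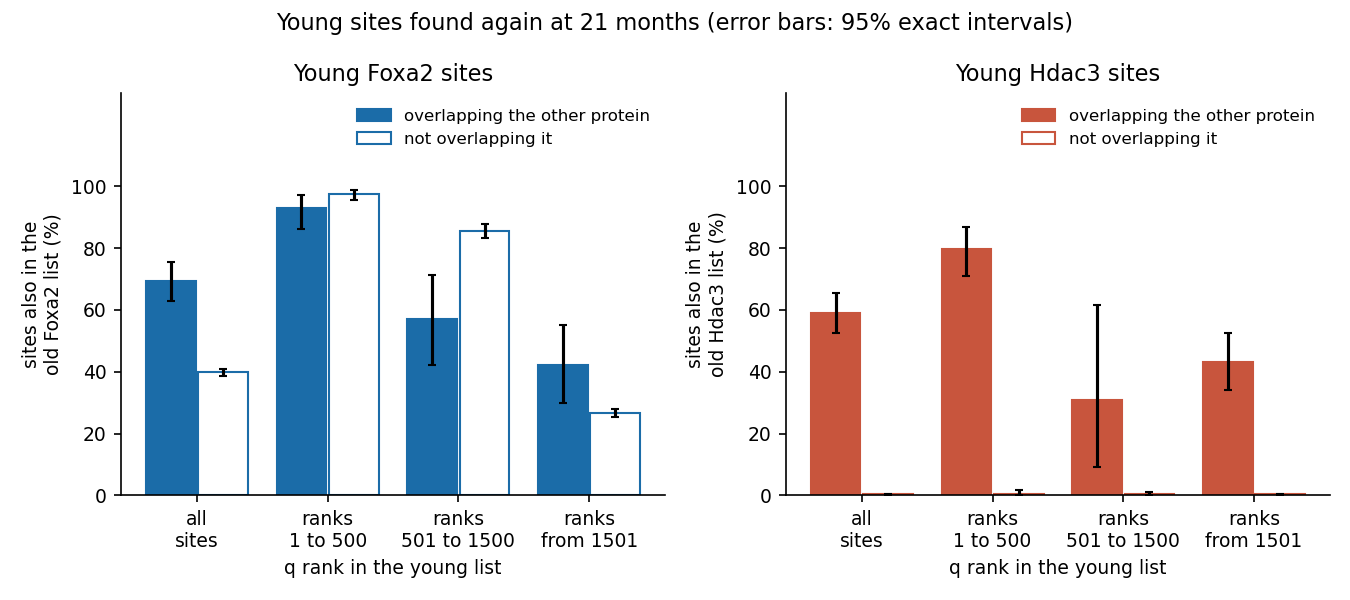
Share of young Foxa2 sites also in the old Foxa2 list (left) and of young Hdac3 sites also in the old Hdac3 list (right), for sites that overlap the other protein in young liver (filled) and sites that do not (open), over all sites and by q rank in the young list. Error bars are exact 95% intervals. The open bars on the right are under 1%, and on the left the filled bar is the lower one in the first 1500 ranks and the higher one beyond.

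Counted by place, 147 of the 212 shared places recurred for Foxa2 (69.3%, interval 62.7 to 75.5) and 136 for Hdac3 (64.2%, 57.3 to 70.6). Both old lists had a site at 101 places, old Foxa2 alone at 46, old Hdac3 alone at 35, and neither at 30 (14.2%). Of the 84 places outside the special regions, 42 recurred for Foxa2 and 18 for Hdac3, and none for both, since a place with both old proteins belongs by definition to a region of all 4 lists. The 5 best-ranked places that no old list held were chrX:166445435-166446856 (Foxa2 rank 32, Hdac3 rank 71), chr8:56206793-56206903, chr8:19977892-19978141, chr11:3028338-3028547 and chr8:73655417-73655653. Their Foxa2 enrichments ran from 1.91 to 14.5 and their Hdac3 enrichments from 2.51 to 25.4.

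Young Hdac3 was also set beside old Foxa2. Of the 5828 young Hdac3 sites 260 (4.46%) overlapped an old Foxa2 site, and 237 a young one. The old Foxa2 list was longer, and with its 6604 best sites alone it was met by 196 of them, 3.36%. Only 145 young Hdac3 sites lay on Foxa2 sites of both ages. A further 92 lay on young Foxa2 only and 115 on old Foxa2 only, and their median widths were 79.5 and 29 bp. The median was 150 bp for those on Foxa2 of both ages and 24 bp for the 5476 on no Foxa2. Without touching it, 27 of the 115 lay within 500 bp of a young Foxa2 site, as did 87 of the 5476 on no Foxa2.

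A Foxa2 list can be paired with an Hdac3 list in 4 ways, and pairs that share a list are not independent. Of the young Foxa2 sites 237 met the old Hdac3 list, 3.59% (interval 3.15 to 4.07), an interval that overlaps that of the young pair, although the old Hdac3 list had 2930 sites. In the old pair 156 Foxa2 sites, 1.22% (1.03 to 1.42), and 158 Hdac3 sites, 5.39% (4.60 to 6.27), overlapped. With the best 2930 sites of every list, 4.40% of Foxa2 sites overlapped in the young pair (3.69 to 5.21), 6.28% for young Foxa2 with old Hdac3 (5.43 to 7.22), 3.14% for old Foxa2 with young Hdac3 (2.54 to 3.84) and 2.56% in the old pair (2.02 to 3.20). The shares of the full lists outside the special regions were 1.32%, 1.50%, 1.18% and 0.323% in the same order. The Foxa2 share was higher in the young than in the old pair at each q limit, though by less than in the full lists. The intervals overlapped at both limits. At a q of at most 0.1 the Foxa2 shares were 1.67% young (1.37 to 2.01) and 1.26% old (1.05 to 1.51). At a q of at most 0.05 they were 84 of 5685 sites young, 1.48% (1.18 to 1.83), and 85 of 7059 old, 1.20% (0.963 to 1.49). For the Hdac3 share the order of these pairs depended on the q limit. At a q of at most 0.05 the Hdac3 shares were 88.6% young and 35.2% old, the reverse of their order in the full lists. An Hdac3 site lay within 10000 bp, without overlap, of 10.5% of young and 3.21% of old Foxa2 sites. These last shares are of the full lists, in which Hdac3 had 5828 sites at 3 months and 2930 at 21 months, and were not computed at equal list lengths.

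Some of the best-ranked sites lay far from the other protein, and those of Foxa2 recurred with age. Of the best 100 Foxa2 sites 17 lay more than 100000 bp from any young Hdac3 site. The first 4 were chr4:137423288-137423453 (rank 37, enrichment 47.0, nearest Hdac3 at 173 kb), chr6:116585527-116585861 (enrichment 20.8), chr8:129133776-129134052 (24.7) and chr6:117248044-117248269 (25.6, nearest Hdac3 at 854 kb). Each of the 4 was in the old Foxa2 list and none in the old Hdac3 list. All 35 of the best 100 Foxa2 sites that did not overlap Hdac3 were in the old Foxa2 list. Of the best 100 Hdac3 sites 2 lay that far from young Foxa2. They were chr6:132413715-132413852 (rank 63, enrichment 57.6), which both old lists held, and chr5:128121889-128122196 (rank 81, enrichment 14.1), which only the old Foxa2 list held. The next, chr1:50739891-50739990 (18.5), was in the old Foxa2 list too, and chr16:42876198-42876308 (53.3) was in neither. Of all 3304 Hdac3 sites far from young Foxa2, 28 (0.847%) recurred as old Foxa2 and 4 (0.121%) as old Hdac3 sites. Over all young Hdac3 sites these shares were 4.46% and 2.71%. Of the 3901 far Foxa2 sites, 1475 (37.8%) were in the old Foxa2 list, near the 40.7% of all young Foxa2 sites.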

How the data were processed

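Foxa2 and Hdac3 ChIP-seq sites of liver were taken as deposited, 1 list per protein and age. The submitters' processing notes name BWA as a tool and mm9 as the build. For the peak caller, the control, the way 2 libraries became 1 list and the read depth, the sources used here give nothing. Besides its position, a site carries a fold enrichment, a ratio made by the authors per the file headers, and a q-value from the authors, which reached 0.12 in the Foxa2 and 0.2 in the Hdac3 lists. The end was counted in the site. Overlaps of at least 1 bp, distances and exact (Clopper-Pearson) 95% intervals were computed with Python 3.11.15, pandas 2.3.3 and scipy 1.17.1. Overlap counts equalled those of bedtools 2.31.1, and the code was tested on simulated data with known overlaps. Densities count centres of the other list in rings, and their mean is taken over each chromosome between its first and last young site. Crowded windows lie on a grid of 100 kb from position 0.

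Places were named by a rule: the 5 best shared places by the worse of both q ranks, the 12 best outside regions of all 4 lists, the 5 best in no old list, the 4 best sites of each protein over 100000 bp from the other, and the 3 crowded windows with most shared places. The window on chromosome 4 and the steps at 50 and 100 ranks were chosen after values were seen. The comparison, window rule and alternatives were chosen with earlier results of these data known. Alternatives were other overlap rules, q limits, list lengths, autosomes, and lists without special regions. Gene lists, marker genes and motifs were not analysed, since the tables at hand are of GRCm38, another build.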

Additional observations from a re-analysis of the deposited data

How the results depend on the processing

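Of 54 alternative values, 35 lay outside the counting interval of the value reported. The Foxa2 share lay between 1.32% and 5.19% under every alternative. The share of Foxa2 sites on Hdac3 (3.23%) was 1.94% with at least 50% of both sites in common, 3.82% with centres within 200 bp, 5.19% with edges within 500 bp, 1.67% and 1.48% at q limits of 0.1 and 0.05, 3.91% in the best 50% of both lists, 1.69% without regions of all 4 lists and 2.28% without crowded windows. The share of Hdac3 sites on Foxa2 (4.07%) depended most on the q limit, with 9.32% at 0.1 (120 of 1288 sites) and 88.6% at 0.05 (93 of 105). It was 2.20% with 50% of both sites in common, 6.02% with edges within 500 bp, 4.91% in the best 50%, 2.08% without regions of all 4 lists and 2.65% without crowded windows. Shared places in the old Foxa2 list (69.3%) came to 78.9% with 50% of both sites in common and to 88.9% and 95.2% at the q limits. Those in the old Hdac3 list (64.2%) came to 78.9%, to 50.4% with centres within 200 bp, to 78.7% and 91.6% at the q limits and to 55.1% without crowded windows. Foxa2 sites with Hdac3 within 10000 bp but no overlap (10.5%) came to 3.17% at a q limit of 0.1, 6.75% in the best 50% and 9.37% without crowded windows, and the matching Hdac3 share (9.64%) to 5.90% in the best 50%. Chosen after seeing the data were lists without both kinds of special region, which gave 1.32%, 1.50%, 50%, 21.4% and 9.30% for the first 5 of these results, and sites of at least 30 bp, which gave 4.62%, 7.85% and, for the old Hdac3 list, 72.7%. Equal list lengths, autosomes and an end not counted in the site left the shares they were tried on within their intervals. No paired analysis was possible because each group has 1 list for both libraries. Read depth, which limits how many sites could be listed, was unknown.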

Other observations

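The authors' enrichment values repeated within chromosomes. In the young Hdac3 list 2959 of the 5828 sites (50.8%) had an enrichment that at least 5 sites shared to the last digit, and 133 of these 137 repeated values occurred on 1 chromosome only. In the young Foxa2 list 2952 sites (44.7%) did, with 186 of 215 values on 1 chromosome. On chromosome 8, chosen after the values were seen, the 4 most common Hdac3 values were 18.515 (65 sites), 9.258 (26), 21.601 (25) and 6.172 (17), which are 1, 0.50, 1.17 and 0.33 times the first. The most common Foxa2 values there were 10.588 (53 sites), 5.294 and 11.912 (29 each) and 5.956 (17), or 1, 0.50, 1.13 and 0.56 times the first. Such repeated values were carried by 20.7% of the overlapping Foxa2 sites (exact 95% interval 15.4 to 26.7) against 45.5% of the others (44.3 to 46.7), and 28.3% of the overlapping Hdac3 sites (22.6 to 34.5) against 51.7% (50.4 to 53.0).

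The Y chromosome had 5 young Foxa2 and 2 young Hdac3 sites, and 1 of each overlapped. The old Foxa2 list had no site there and the old Hdac3 list had 2.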
